A study of Drosophila melanogaster with 9 samples.

Results

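CG11034, CG10962, mthl8, CR12628, Dh44-R2, CG6656 and CG30440 are 7 genes whose RNA was scarcer in ovaries of a Drosophila melanogaster moesin mutant than in ovaries of both of its heterozygous controls. Among them are 2 membrane receptors, predicted enzymes and a pseudogene. They were chosen by those very values: each had a negative log2 difference against both controls with an adjusted p under 0.05 in edgeR's quasi-likelihood test. A total of 16 of the 8642 genes tested met that rule, out of 17558 gene identifiers in the files. These are the 7 of them that were grouped as receptors and genes with little known of them. The other 9, among them CG11811 and CG9701, were not placed in this group. Values of mutant against heterozygote are therefore given for the 7 as a description, without a test. Tests are given for the comparison of the heterozygotes with each other, for neighbouring genes and for related genes.

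In the mutant, moe[NES] stood over moe[G0415]. The NES heterozygote carried moe[NES] over a w[1118] chromosome, and the null heterozygote carried moe[G0415] over w[1118]. Moesin is the fly member of the protein family that ties actin filaments to the plasma membrane, and NES and G0415 are allele names as the labels give them. Each group had 3 libraries of ovary mRNA. The flies were females aged 3 days, 10 per genotype as the labels put it, from crosses kept at 25 °C, and no heat treatment is given. Moesin is X-linked, and both controls carried a w[1118] X chromosome that the mutant lacked, so the moesin genotype and the rest of that chromosome cannot be told apart; the labels give no autosomal background. Nothing in them says that the replicates are separate crosses, and p-values then cover no more than the spread between these samples. In whole ovaries, fewer cells of a type and less RNA per cell cannot be told apart.

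Methuselah-like receptors and the receptors of diuretic hormone 44 are both members of the secretin-type (class B) branch of G protein-coupled receptors, in which an extracellular domain binds a ligand and the receptor then acts inside the cell through a G protein. Methuselah itself is known in flies for its link to lifespan and stress resistance. Diuretic hormone 44 is a neuropeptide related to vertebrate corticotropin-releasing factor and raises cyclic AMP in its target cells, among them those of the Malpighian tubules.

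Total counts were 31.8 to 43.6 M per library, where 1 M is 1000000 counts. Levels are TMM-scaled counts per M (CPM), so that 1 CPM stood for 30.8 to 42.8 counts and 3 counts, taken as the floor, for 0.0701 to 0.0973 CPM. Moe, the mutated gene, averaged 409 ± 28.3 CPM in the mutant, 694 ± 75 CPM in the NES heterozygote and 388 ± 44.7 CPM in the null heterozygote (SD, n = 3 each). The eye colour gene w, of which w[1118] is an allele, averaged 39.3 ± 3.04 CPM in the mutant, 1.08 ± 0.745 CPM in the NES heterozygote and 26.4 ± 8.67 CPM in the null heterozygote, so the controls differed from each other at w (log2 difference -4.60 for the NES over the null heterozygote, edgeR adjusted p = 0.00374). Eggshell genes, which follicle cells switch on late in egg chamber growth, took 2.54% to 3.95% of counts in the mutant libraries, 1.82% to 3.75% in the NES heterozygote and 0.63% to 3.32% in the null heterozygote. Null heterozygote replicates 1 and 3 stood apart with the lowest shares, 0.63% and 0.788%.

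For 5 of the 7 genes the level was under 10 CPM in both heterozygotes, and it was highest for CG30440. All 7 passed the filter on low counts. For mthl8 and CR12628, with fewer than 10 counts in every mutant library, this was only through the heterozygote libraries. All 3 mutant libraries lay below all 6 heterozygote libraries for 7 of 7 genes, a pattern the rule favours and that 3.29% of genes tested showed. The gap differed among them. The lowest heterozygote library stood 8.62 times above the highest mutant library for CR12628, 8.37 times for mthl8 and 8.23 times for CG10962. The ratio was 4.35 for CG11034, 4.23 for Dh44-R2, 1.71 for CG6656 and 1.38 for CG30440. The mutant mean of CG10962, mthl8, CR12628 and Dh44-R2 was 3.93% to 11% of their heterozygote mean.

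**Figure D1:**
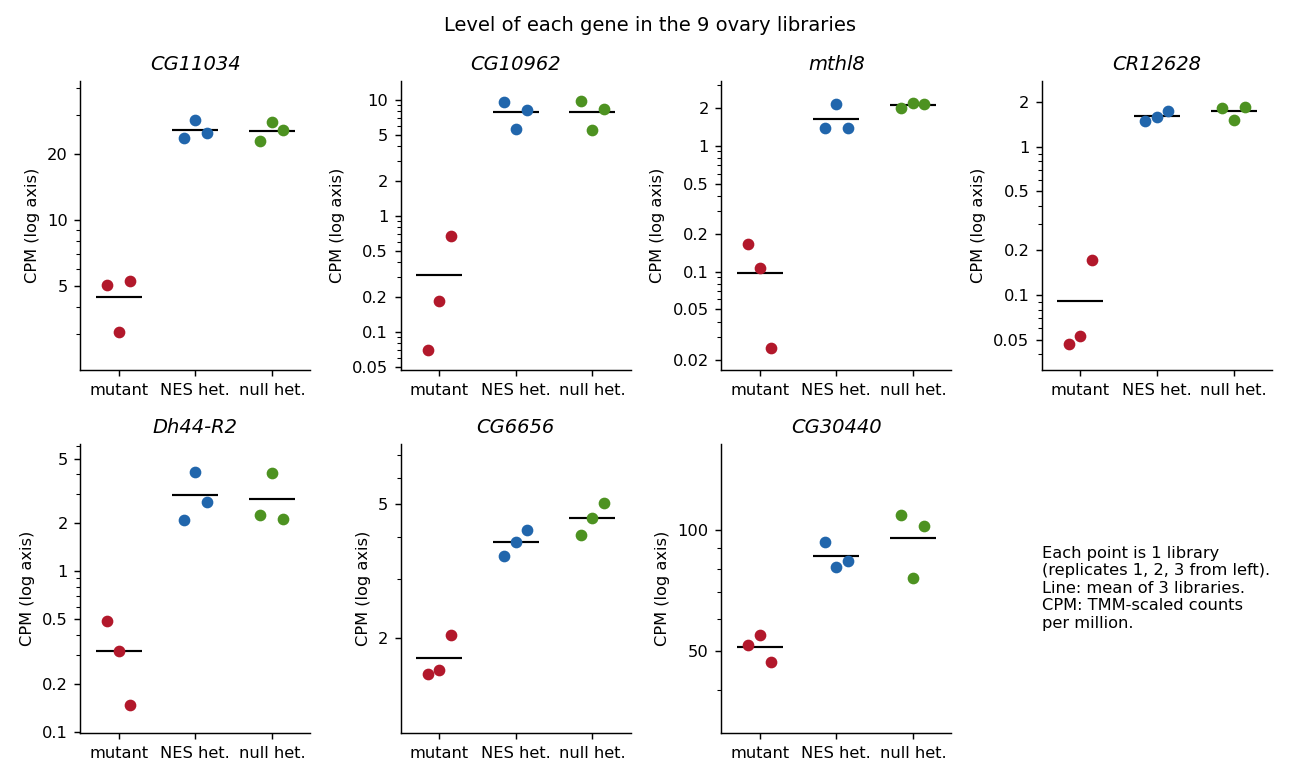
Level of each gene in CPM (log axis) in every library, with mutant libraries on the left, NES heterozygote libraries in the middle and null heterozygote libraries on the right. In every panel the 3 mutant points lie below the 6 heterozygote points, and the separation is narrowest for CG30440 and CG6656.

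The receptor gene mthl8 was close to the detection floor in the mutant. It had 7, 4 and 1 counts in the mutant libraries, against 49, 72 and 47 in the NES heterozygote and 76, 67 and 84 in the null heterozygote. In CPM this was 0.164, 0.106 and 0.0247 in the mutant, 1.38, 2.13 and 1.37 in the NES heterozygote and 2.0, 2.17 and 2.13 in the null heterozygote. All heterozygote libraries were thus above 1 CPM and the highest mutant library was at 0.164 CPM. The mutant mean was 5.26% of the mean of the heterozygotes, and the log2 difference was -4.00 (SE 0.50) against the NES heterozygote and -4.37 (SE 0.50) against the null heterozygote. With so few mutant reads the differences moved with single libraries: without mutant replicate 1 they were -4.59 and -4.96, and without mutant replicate 3 they were -3.55 and -3.92, against the NES and null heterozygotes.

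Dh44-R2, a receptor of diuretic hormone 44, was low in every genotype and lowest in the mutant. The mutant libraries had 0.491, 0.317 and 0.148 CPM (21, 12 and 6 counts), against 2.08, 4.12 and 2.68 CPM (74, 139 and 92 counts) in the NES heterozygote and 2.24, 4.09 and 2.1 CPM (85, 126 and 83 counts) in the null heterozygote. Replicate 2 was the highest library of both heterozygotes, and these were also the libraries richest in eggshell transcripts within their groups. The mutant mean was 11% of the heterozygote mean, and the log2 differences were -3.20 (SE 0.50) against the NES heterozygote and -3.12 (SE 0.50) against the null heterozygote. Its ligand gene Dh44 had 0, 1 and 3 counts summed over the mutant, NES heterozygote and null heterozygote libraries, at or under the floor, and the other receptor of that hormone, Dh44-R1, had 2, 0 and 1.

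CG30440, a protein-coding gene, was the most abundant of the 7 genes and the least changed. It had 51.9, 54.8 and 47.1 CPM in the mutant, 93.3, 81.1 and 83.9 CPM in the NES heterozygote and 109, 75.9 and 102 CPM in the null heterozygote. The groups did not overlap, but null heterozygote replicate 2 lay well below the other null heterozygote libraries and below all NES heterozygote libraries. The mutant mean was 56.4% of the heterozygote mean, with log2 differences of -0.75 (SE 0.13) against the NES heterozygote and -0.90 (SE 0.13) against the null heterozygote.

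CG10962, predicted to encode an enzyme of the short-chain dehydrogenase family, showed the largest log2 difference of the 7. Its counts were 3, 7 and 27 in the mutant libraries, against 344, 189 and 280 in the NES heterozygote and 368, 169 and 329 in the null heterozygote. The levels were 0.0701, 0.185 and 0.666 CPM in the mutant, 9.66, 5.6 and 8.16 CPM in the NES heterozygote and 9.7, 5.48 and 8.33 CPM in the null heterozygote. Mutant replicate 3 was the highest of its group and still far under every heterozygote library, while replicate 2 was the lowest of each heterozygote. The mutant mean was 3.93% of the heterozygote mean, and both log2 differences were -4.66 (SE 0.64). Without mutant replicate 3 they were -5.93 against each heterozygote, and without mutant replicate 1 they were -4.18 against each.

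CG11034 is predicted to encode a peptidase of the dipeptidyl peptidase type. Its levels were 5.03, 3.09 and 5.26 CPM in the mutant, 23.7, 28.7 and 25.0 CPM in the NES heterozygote and 22.9, 27.9 and 25.6 CPM in the null heterozygote. The heterozygote libraries lay close together and the mutant libraries all stood far below them. The log2 differences were -2.53 (SE 0.20) against the NES heterozygote and -2.51 (SE 0.20) against the null heterozygote, and the mutant mean was 17.4% of the heterozygote mean.

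CG6656 was lower in the mutant by a smaller margin. It had 1.57, 1.61 and 2.05 CPM in the mutant, 3.51, 3.85 and 4.2 CPM in the NES heterozygote and 4.06, 4.54 and 5.04 CPM in the null heterozygote. No mutant library overlapped the heterozygotes, and the mutant mean was 41.5% of the heterozygote mean. The log2 differences were -1.14 (SE 0.20) against the NES heterozygote and -1.38 (SE 0.20) against the null heterozygote.

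CR12628 is annotated as a pseudogene and carries the synonym Mgstl-Psi, after Mgstl, a gene for a microsomal glutathione S-transferase-like protein. Its counts were 2, 2 and 7 in the mutant, 53, 54 and 60 in the NES heterozygote and 69, 47 and 73 in the null heterozygote. In CPM it had 0.0468, 0.0529 and 0.173 in the mutant, 1.49, 1.6 and 1.75 in the NES heterozygote and 1.82, 1.52 and 1.85 in the null heterozygote. The mutant mean was thus 5.43% of the heterozygote mean. The log2 differences were -4.10 (SE 0.46) against the NES heterozygote and -4.20 (SE 0.46) against the null heterozygote, and leaving out 1 mutant library moved them. Without mutant replicate 3 they were -4.93 and -5.03, without mutant replicate 1 -3.78 and -3.89, and without mutant replicate 2 -3.85 and -3.95, against the NES and null heterozygotes. Because pseudogene and parent can be similar in sequence, and it is not given in the sources used here how multiply mapping reads were counted, its counts are uncertain. By edgeR, Mgstl itself did not differ with adjusted p under 0.05 between any pair of genotypes. It averaged 27.2 CPM in the mutant, 17.7 CPM in the NES heterozygote and 25.9 CPM in the null heterozygote. Its log2 difference between the mutant and the NES heterozygote was 0.62 (SE 0.12, edgeR adjusted p = 0.0565), opposite in sign to that of CR12628.

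Ordered by CPM per kilobase of exon in the mutant, CG30440 was highest with 14.9, followed by CG11034 with 1.75, CG6656 with 1.13, CG10962 with 0.286, CR12628 with 0.146, Dh44-R2 with 0.0972 and mthl8 with 0.0287. In the NES heterozygote CG30440 had 25.0, CG11034 10.1, CG10962 7.27, CR12628 2.6, CG6656 2.5, Dh44-R2 0.903 and mthl8 0.476 CPM per kilobase, and the null heterozygote had 27.8, 9.98, 7.30, 2.79, 2.95, 0.857 and 0.616 for the same genes. CG6656 thus stood above CG10962 and CR12628 in the mutant, whereas in both heterozygotes CG10962 was above it and CR12628 was about level with it. Relative to other genes, mthl8 stood above 0.289% of tested genes in the mutant and above 16.9% in the NES heterozygote and 18.7% in the null heterozygote. The genes tested are those that passed the filter on low counts, which mthl8 passed only through its heterozygote libraries. Its rank near the bottom in the mutant is thus largely set by that filter. CG30440 stood above 55.5% of tested genes in the mutant, 68.7% in the NES heterozygote and 71.5% in the null heterozygote.

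The rule did not use the comparison of the 2 heterozygotes with each other, which asks whether one copy of moe[NES] rather than of the null allele goes with another level. By edgeR's quasi-likelihood test 0 of 7 genes differed, where 0.833% of genes tested did; 0 of 7 had an unadjusted p under 0.05, and DESeq2 called 0 as well. The log2 differences of NES over null heterozygote were between -0.37 for mthl8 (SE 0.40, edgeR adjusted p = 0.941) and 0.08 for Dh44-R2 (SE 0.44, adjusted p = 0.997). The standard error was smallest for CG30440, with a difference of -0.15 (SE 0.13, edgeR adjusted p = 0.889), followed by CG11034 with 0.02 (SE 0.19, adjusted p = 0.997) and CG6656 with -0.24 (SE 0.20, adjusted p = 0.875). For CG10962 the standard error of 0.51 leaves a wide range, so its difference of -0.01 does not show equal levels. A choice of genes lower than both heterozygotes favours genes alike in the 2, and the result is no independent sign of likeness.

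The share of eggshell transcripts overlapped between genotypes but was lowest in null heterozygote replicates 1 and 3, which had the 2 highest levels of CG30440. Without these libraries the log2 difference of CG30440 from the null heterozygote was -0.58, and with the eggshell share as a covariate it was -0.57, against -0.90 over all libraries. The difference of CG10962 from the null heterozygote was -4.16 without them and -4.07 with the covariate, against -4.66. For Dh44-R2 the values were -3.67 without them and -3.77 with the covariate, against -3.12. The part of the egg chamber stages in these differences was not tested.

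RNA of other tissues could also reach an ovary library, and summed levels of marker lists were set beside these results. Of 11 marker lists, 0 had all mutant libraries below all heterozygote libraries. For the digestive tract, enteroendocrine and spermatheca lists that order could not occur, since their lowest NES heterozygote library was at 0. The count therefore gives no conclusion about RNA of other tissues, whose part in the levels of the 7 genes was not tested. Digestive tract markers differed most between libraries: they summed to 0.0264 to 15.2 CPM in the mutant, 0 to 0.0562 CPM in the NES heterozygote and 0.0253 to 4.19 CPM in the null heterozygote, with 1 of 10 markers passing the filter on low counts and 2 at 0 in every library. The trypsin gene alphaTry had 106, 0 and 204 counts in mutant replicates 1, 2 and 3, 0 counts in every NES heterozygote library and 36, 0 and 0 counts in the null heterozygote, so mutant replicates 1 and 3 held gut transcripts that mutant replicate 2 nearly lacked. The part of gut tissue in the levels of the 7 genes was not tested. Enteroendocrine markers summed to 0.0264 to 0.187 CPM in the mutant, 0 to 0.0291 CPM in the NES heterozygote and 0.076 to 0.264 CPM in the null heterozygote, with 0 of 6 markers passing the filter on low counts. Neuron markers summed to 9.52 to 14.7 CPM in the mutant, 7.84 to 10.5 CPM in the NES heterozygote and 4.28 to 14.9 CPM in the null heterozygote. Most of that sum was cac, at means of 8.7, 5.89 and 5.03 CPM in the same order. Malpighian tubule markers summed to 173 to 188, 159 to 170 and 164 to 188 CPM in the mutant, the NES heterozygote and the null heterozygote. Nearly all of that sum was ZnT35C, at means of 110, 91.2 and 88.9 CPM, and Irk1, at 69.7, 69 and 82.2 CPM. The tubule marker Uro averaged 1.01, 1.19 and 1.82 CPM, so the sum hardly reflects it. Fat body markers summed to 17.8 to 51.9 CPM in the mutant, 31.9 to 43.2 CPM in the NES heterozygote and 28.8 to 55.1 CPM in the null heterozygote, with 1 gene called higher in the mutant against the NES heterozygote by edgeR. Nearly all of the fat body sum was apolpp, at means of 34.6, 37.3 and 38.1 CPM in the same order. Muscle markers, which the ovary sheath also expresses, summed to 117 to 217 CPM in the mutant, 74.9 to 141 CPM in the NES heterozygote and 81.4 to 156 CPM in the null heterozygote. Spermatheca markers were at 0 in all mutant and NES heterozygote libraries and reached 0.0253 CPM in the null heterozygote. Germline markers summed to 2860 to 3320 CPM in the mutant, 2640 to 3190 CPM in the NES heterozygote and 2510 to 3380 CPM in the null heterozygote.

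The 7 genes lie on 5 chromosome arms (BDGP6 coordinates), and each was therefore examined with its own neighbours. CG10962 is the only one on the X chromosome, at X:8972908-8974255 on the minus strand, 74576 bases from Moe. mthl8 lies at 3L:22428-26308 on the plus strand, next to the end of the arm, with no annotated gene between it and that end. CG11034 is at 2L:5805395-5809063 and CR12628 at 2L:22226152-22226771, both on the plus strand. Dh44-R2 is at 2R:12474424-12487986 on the plus strand and CG30440 at 2R:5468319-5495861 on the minus strand, and CG6656 is at 3R:21875293-21877788 on the plus strand. None adjoins another of the 16 genes lower than both heterozygotes: the nearest such gene to mthl8 was CkIIalpha-i3 at 682 kb, and CG10962 had none on its chromosome.

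The annotation puts 43 genes over these loci or among the 3 nearest on each side, of which 21 passed the filter on low counts and 21 did not. The last, stw beside CG30440, is not analysed here. The 21 that were not tested averaged at most 0.451 CPM in every genotype, and 4 had 0 counts in all libraries. Of the 21 tested neighbours, edgeR called 1 in the mutant against the NES heterozygote, with a lower level, and 0 with a higher one (4.76%), against 0.972% of all genes tested called in either direction and 0.393% called lower. Against the null heterozygote it called 0 of 21, where 1.25% of all genes were called and 0.428% were lower, and between the heterozygotes 0 of 21. At an unadjusted p under 0.05 there were 4, 4 and 2 of 21 in the mutant against the NES heterozygote, the mutant against the null heterozygote and the NES against the null heterozygote. The share of all genes at that unadjusted p is not given here. DESeq2 called 1, 2 and 1 of the neighbours, where it called 345, 552 and 341 of all 8642 genes. Its calls were lncRNA:CR43836, lower in the mutant against each heterozygote, and achi beside Dh44-R2, lower against the null heterozygote. Between the heterozygotes it called Ugt50B3, lower in the NES heterozygote. Without null heterozygote replicate 2, edgeR called 8 of the neighbours tested against the null heterozygote, a setting in which 3679 genes were called overall. The median log2 difference of the neighbours was -0.05 against the NES heterozygote and -0.15 against the null heterozygote, beside 0.00 for all genes tested in both. Over all genes within 50 kb, 38 were tested, and the same 1 was called.

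**Figure D2:**
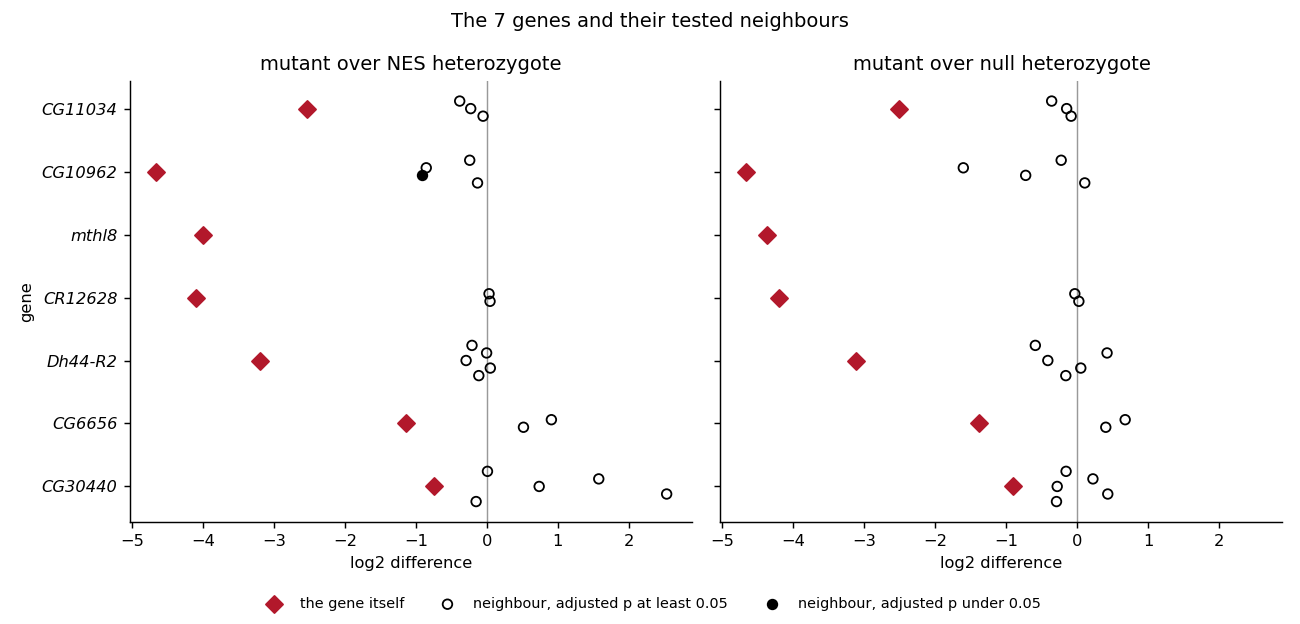
Log2 difference of each of the 7 genes (diamonds) and of its tested neighbours (circles, filled where edgeR's adjusted p was under 0.05), in the mutant over the NES heterozygote on the left and over the null heterozygote on the right. Neighbours scatter about 0 while the genes themselves lie to the left of them, and the 1 filled neighbour is lncRNA:CR43836 beside CG10962.

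The neighbour that changed, lncRNA:CR43836, overlaps CG10962 on the same strand and shares 473 of its 1074 exon bases, 44.0% of them. It had 11.8, 15.1 and 12.5 CPM in the mutant, 24.4, 23.7 and 26.3 CPM in the NES heterozygote and 23.5, 16.5 and 25.0 CPM in the null heterozygote. Every mutant library lay below every heterozygote library. Against the NES heterozygote its level fell in the mutant (log2 difference -0.92, SE 0.17, edgeR adjusted p = 0.0478), and the difference from the null heterozygote did not pass (-0.73, SE 0.16, adjusted p = 0.0919). The call was fragile: it held in 7 of 18 alternative settings, with adjusted p from 3.23e-05 to 0.228, and was lost when any library other than null heterozygote replicate 2 was left out. Reads on the shared bases cannot be assigned to one of the 2 genes from their position alone, so the values of both are uncertain.

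CG10962 also lies inside an intron of rdgA, a diacylglycerol kinase gene on the other strand with which it shares 0 exon bases. The level of rdgA was 14.1, 10.9 and 14.7 CPM in the mutant, 12.8, 14.3 and 16.4 CPM in the NES heterozygote and 12.4, 14.0 and 10.4 CPM in the null heterozygote. The libraries of the 3 genotypes overlapped, with log2 differences of -0.13 (edgeR adjusted p = 0.727) against the NES heterozygote and 0.11 (adjusted p = 0.699) against the null heterozygote. On the sides, CG12662 at 9378 bases averaged 0.30 CPM in the mutant, 0.545 CPM in the NES heterozygote and 0.917 CPM in the null heterozygote, with log2 differences of -0.85 (edgeR adjusted p = 0.614) and -1.60 (adjusted p = 0.28). The microRNA gene mir-4964 at 6995 bases had 2, 0 and 0 counts summed over the mutant, NES and null heterozygote libraries.

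**Figure D3:**
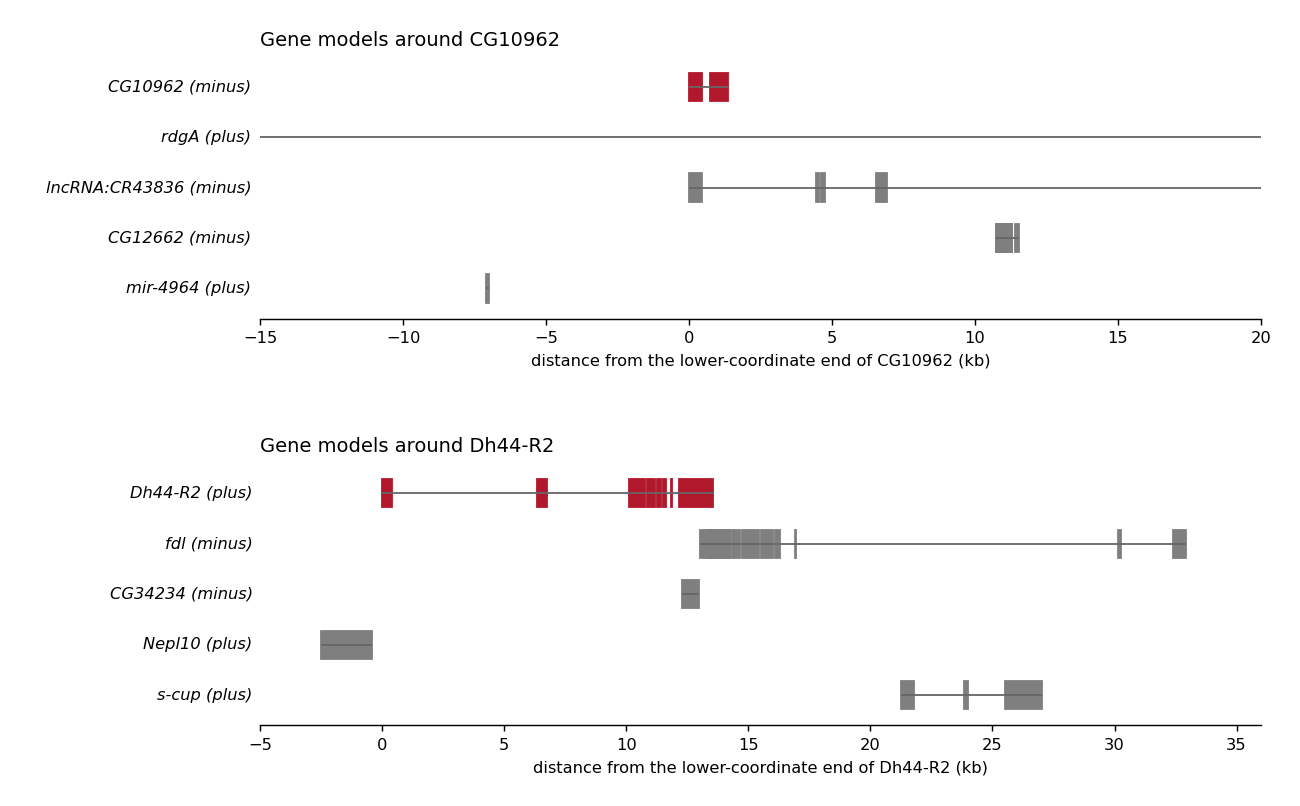
Gene models around CG10962 (top) and Dh44-R2 (bottom), drawn to scale in kilobases from the lower-coordinate end of each gene, with boxes for exons, lines for introns and the strand beside each name. CG10962 shares exon bases with lncRNA:CR43836 on its own strand and none with rdgA, and Dh44-R2 shares exon bases with CG34234 and fdl on the opposite strand.

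Dh44-R2 shares 1087 of its 3278 exon bases with genes on the other strand, 536 with fdl, which encodes a hexosaminidase, and 551 with CG34234. CG34234 had 0 counts in every library. The level of fdl was 46.6, 65.9 and 51.6 CPM in the mutant, 80.9, 48.3 and 71.8 CPM in the NES heterozygote and 89, 41.2 and 88.1 CPM in the null heterozygote, and the 3 groups overlapped. Its log2 differences were -0.29 (edgeR adjusted p = 0.675) against the NES heterozygote and -0.41 (adjusted p = 0.443) against the null heterozygote. In replicate 2 of each heterozygote fdl was lowest while Dh44-R2 was highest. The kit marks strand, but the strand setting of the counting is not given in the sources used here, so the share of fdl reads among the counts of Dh44-R2 is unknown. On the sides, Nepl10, a neprilysin-like peptidase gene at 402 bases, averaged 0.105 CPM in the mutant, 0.167 CPM in the NES heterozygote and 0.103 CPM in the null heterozygote and was not tested. The gene s-cup at 7685 bases had 3, 2 and 3 summed counts in the mutant, the NES heterozygote and the null heterozygote.

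CG11034 has a neighbour on the same strand, CG7239, at 1364 bases, which was abundant in all genotypes. CG7239 had 25.7, 37.3 and 29.2 CPM in the mutant, 46.5, 32.1 and 41.7 CPM in the NES heterozygote and 46.3, 24.2 and 47.8 CPM in the null heterozygote. Its groups overlapped, and its log2 differences of -0.38 (edgeR adjusted p = 0.582) and -0.36 (adjusted p = 0.443) against the NES and null heterozygotes were not past the threshold. On the other side, lncRNA:CR44575 at 638 bases had 0 counts.

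The nearest gene to mthl8, CG43149 at 27564 bases, had 1, 1 and 5 counts summed over the mutant, NES heterozygote and null heterozygote libraries, and 0 of the 3 genes beside mthl8 passed the filter on low counts. Beside CR12628, Ir40a, an ionotropic receptor gene at 11775 bases, averaged 0.164 CPM in the mutant, 0.451 CPM in the NES heterozygote and 0.122 CPM in the null heterozygote. On its other side, lncRNA:CR43765 at 12411 bases had 5, 8 and 3 summed counts in the mutant, the NES heterozygote and the null heterozygote. CG6656 stands in a dense stretch, with CG34148 at 81 bases and CG31178 at 370 bases. CG34148 had 27, 23 and 12 summed counts in the mutant, the NES heterozygote and the null heterozygote, and CG31178 had 7, 3 and 7. Both genes were too low to test, and the mutant did not have the lowest sum for either.

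The start of CG30440 lies 812 bases from the start of Ugt50B3, a UDP-glycosyltransferase gene on the opposite strand. Ugt50B3 had 14.2, 17.2 and 9.7 CPM in the mutant, 8.65, 6.84 and 9.15 CPM in the NES heterozygote and 15.1, 20.5 and 14.3 CPM in the null heterozygote. The mutant lay above the NES heterozygote and overlapped the null heterozygote, an order unlike that of CG30440. edgeR called none of its differences: log2 0.74 against the NES heterozygote (adjusted p = 0.267), -0.28 against the null heterozygote (adjusted p = 0.483) and -1.02 for the NES over the null heterozygote (adjusted p = 0.115), the last of which DESeq2 called.

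A set of 4 lists holds genes that share a family or pathway with mthl8, Dh44-R2 and CR12628: methuselah family receptors, class B receptors with their peptides, cyclic AMP signalling, and microsomal glutathione S-transferases. Of their 44 genes in the files 32 were tested, the 7 genes left out. By edgeR 0 of 32 were called in the mutant against the NES heterozygote, in the mutant against the null heterozygote or between the heterozygotes, beside 0.972%, 1.25% and 0.833% of all genes tested. Unadjusted p under 0.05 was found for 6, 10 and 9 of them, and the share of all genes at that p is not given here. DESeq2 called 2, 6 and 3 of them, where it called 345, 552 and 341 of all 8642 genes. Without null heterozygote replicate 2, edgeR called 13 against the null heterozygote, where it called 3679 of all 8840 genes tested. The median log2 difference was 0.19 against the NES heterozygote and 0.18 against the null heterozygote, where all genes tested had 0.00 in both.

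**Figure D4:**
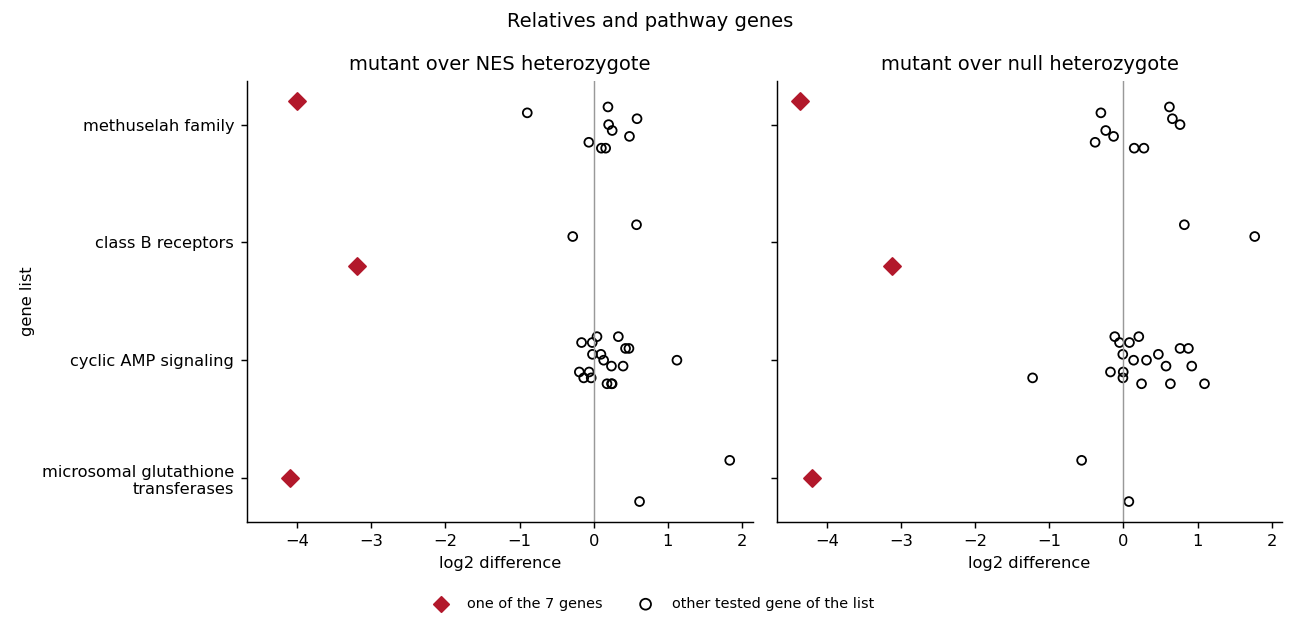
Log2 difference of each tested gene of the 4 lists, by list (circles), in the mutant over the NES heterozygote on the left and over the null heterozygote on the right, with mthl8, Dh44-R2 and CR12628 as diamonds in the rows of their families. The list genes cluster around and slightly above 0, and none passed edgeR's adjusted p of 0.05, whereas each diamond lies to the left of the circles of its row in both panels.

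Of the methuselah family 9 of 15 genes were tested, with a median log2 difference of 0.19 against the NES heterozygote and 0.15 against the null heterozygote. The founding member mth averaged 35.1 CPM in the mutant, 31.4 CPM in the NES heterozygote and 31.7 CPM in the null heterozygote. The most abundant, mthl1, averaged 47.1, 41.3 and 30.7 CPM, and mthl10 20.3, 17.7 and 12.0 CPM, in the mutant, the NES heterozygote and the null heterozygote. None of the 3 was lower in the mutant than in a heterozygote on average, and mthl10 had a log2 difference of 0.76 from the null heterozygote (edgeR adjusted p = 0.0969). In contrast, mthl5 averaged 12.2, 12.7 and 15.9 CPM, with -0.38 from the null heterozygote (edgeR adjusted p = 0.161). Against that heterozygote DESeq2 called mthl10 higher and mthl5 lower. Of the 9 genes, 4 had a negative log2 difference from the null heterozygote and 2 from the NES heterozygote.

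Among class B receptors and their peptides, 2 of 7 genes were tested. Pdfr, the receptor of pigment-dispersing factor, averaged 1.02 CPM in the mutant, 0.68 CPM in the NES heterozygote and 0.577 CPM in the null heterozygote. The receptor gene hec averaged 1.09, 1.33 and 0.32 CPM in the mutant, the NES heterozygote and the null heterozygote, with a log2 difference of 1.77 from the null heterozygote (edgeR adjusted p = 0.169). DESeq2 called hec higher both in the mutant and in the NES heterozygote, each against the null heterozygote. Downstream of such receptors, 19 cyclic AMP signalling genes were tested. Their median log2 difference was 0.13 against the NES heterozygote and 0.21 against the null heterozygote. Pka-C1, a catalytic subunit of protein kinase A, averaged 212 CPM in the mutant, 237 CPM in the NES heterozygote and 220 CPM in the null heterozygote, and Galphas, the G protein subunit that activates adenylyl cyclase, 15, 12.7 and 12.6 CPM. By edgeR 0 of the 19 were called in any comparison. In the mutant against the null heterozygote 6 had an unadjusted p under 0.05, and the share of all genes is not given here. DESeq2 called Ac13E higher in the mutant against the NES heterozygote, and Pka-C3, Epac and Pde8 higher against the null heterozygote. Over all 8642 genes it called 345 and 552 in these comparisons.

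Genes with the most similar pattern were ranked by Pearson's r of log2(CPM + 0.5) over the 9 libraries, as a description, since the gap between mutant and heterozygotes sets most of r. Of those named, Syt4, CkIIalpha-i3, CG11811, CG9701 and sotv themselves met the rule by which the 7 genes were chosen. Closest to the mean profile of the 7 genes were Syt4 (r = 0.983), a synaptotagmin gene, CkIIalpha-i3 (r = 0.980) and CG5447 (r = 0.979). Syt4 averaged 0.0156 CPM in the mutant, 7.41 CPM in the NES heterozygote and 6.95 CPM in the null heterozygote. CG5447 averaged 57.9 CPM in the mutant, 65.0 CPM in the NES heterozygote and 66.4 CPM in the null heterozygote, so a like pattern went with a far smaller difference. The closest to CG11034 and to mthl8 was CG5447 (r = 0.979 and 0.981), to CG10962 and CR12628 Syt4 (r = 0.980 and 0.978), to Dh44-R2 CG11811 (r = 0.958), to CG6656 CkIIalpha-i3 (r = 0.975) and to CG30440 Tap42 (r = 0.988). The next closest were Syt4 for CG11034 (r = 0.967), CG9701 for mthl8 (r = 0.968), sotv for CG10962 (r = 0.961), CkIIalpha-i3 for CR12628 (r = 0.977), Acp36DE for Dh44-R2 (r = 0.954), Nmt for CG6656 (r = 0.968) and Art1 for CG30440 (r = 0.987).

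The rule's threshold was met narrowly by CG6656 and CG30440, whose higher adjusted p in edgeR was 0.0478 for both, and missed narrowly by CG32187, at 0.0511. CG32187 averaged 0.0254 CPM in the mutant, 0.524 CPM in the NES heterozygote and 1.19 CPM in the null heterozygote. Its log2 differences were -4.23 and -5.40 against the NES and null heterozygotes, far larger than those of CG6656 and CG30440, so the threshold follows precision as well as size. In all, 16 of 8642 genes (0.185%) met the rule and 10 were higher in the mutant than in both heterozygotes. Since the rule used these comparisons, the count of the 7 among them carries no further information.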

How the data were processed

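RNA of 9 ovary samples was isolated with TRIzol and made into TruSeq stranded mRNA libraries for Illumina sequencing, per the labels' protocols. HTSeq, HISAT2 2.0.4, SAMtools 0.1.19, Trimmomatic 0.36, FastQC and the build BDGP6 are named per the submitters' processing notes; what is not given in the sources used here is the strand setting, the annotation release and the treatment of multiply mapping reads. The authors deposited raw read counts per gene, 1 file per library, with 0 rows that name no gene. Symbols, positions and exon bases were read from Ensembl's BDGP6.54 annotation, which held 17252 of the 17558 identifiers.

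Genotypes in the labels gave the groups. In R 4.3.3, edgeR 4.0.16 (limma 3.58.1) kept genes by filterByExpr (minimum count 10, minimum total 15), scaled by TMM and fitted all 9 libraries with 1 coefficient per genotype; quasi-likelihood p-values were adjusted by Benjamini-Hochberg over 8642 genes at a threshold of 0.05. The common dispersion was 0.0403 (biological coefficient of variation 20.1%). The procedure was also run on simulated counts with 200 changed genes. There every gene had the common dispersion, a simpler spread than that of these libraries, so that run does not show how reliable the calls are. Replicates of a group differed beyond sampling noise (chi-square per degree of freedom 17.3 to 302). Neighbours are genes that overlap or are among the 3 nearest on each side.

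Genes named are the 7 themselves, overlapping and nearest genes, neighbours and list genes that were called, up to 3 list genes of highest mean CPM, the likeness ranking and the genes on either side of the threshold; some named list genes were chosen after their values were seen. The 7 genes and the lists were chosen with earlier results of these data known. No sequence comparison was made, so relatives are those of the lists. Some results are not reported here. Alternatives included DESeq2 1.42.0, other scalings and filters, and each library left out.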

Additional observations from a re-analysis of the deposited data

How the results depend on the processing

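All 7 genes kept negative log2 differences from both heterozygotes in every one of the 18 alternative settings that tested them. A filter at a mean of 5 CPM left out mthl8, CR12628, Dh44-R2 and CG6656. The kept sign is no test of robustness. The 7 genes were chosen for that sign in these same libraries, and all their mutant libraries lay below all their heterozygote libraries. The rule itself was met by CG11034 in 18 settings, CR12628 in 16, mthl8 in 15, CG10962 in 12, Dh44-R2 in 6, and CG6656 and CG30440 in 5 each. The cause of these changes was not tested. Between the NES and null heterozygotes 0 of the 7 were called in every setting.

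Counts of genes called are given for the mutant against the NES heterozygote, the mutant against the null heterozygote and the NES against the null heterozygote, in that order. They were 84, 108 and 72 as reported, 345, 552 and 341 with DESeq2, 27, 61 and 33 with the 5 CPM filter, 145, 51 and 24 in fits with only the groups compared, and 1195, 779 and 2534 with eggshell share as a covariate. Without null heterozygote replicates 1 and 3, 19 were called for the mutant against the null heterozygote and 32 between the heterozygotes. Leaving out 1 library gave 28 to 259, 26 to 3679 and 35 to 741.

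Neighbours called in the mutant against the NES heterozygote numbered 0 with library size alone and with the 5 CPM filter, 3 with the eggshell covariate and 0 to 1 with 1 library left out. Against the null heterozygote they numbered 2 with DESeq2, 3 with the covariate and 0 to 8 with 1 library left out. List genes called against the NES heterozygote numbered 1 with library size alone, 2 with DESeq2, 5 with the covariate and 0 to 1 with 1 library left out. Against the null heterozygote they numbered 6, 4 and 0 to 13 with DESeq2, the covariate and 1 library left out.

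With the replicate number as a block, 34, 59 and 38 genes and 0 neighbours against the NES heterozygote were called. Same-numbered libraries did not deviate together in every pair (r from -0.579 to 0.66). Between the NES and null heterozygotes r was 0.66, 0.641 and 0.02 for replicates 1, 2 and 3, and with the mutant it was -0.579 to 0.028. With 3 libraries per group, such values cannot decide whether the numbers pair the samples. The planned search for relatives by BLASTP, at either of its thresholds, and promoter motifs were not run. For mthl8, CR12628, CG10962 and Dh44-R2 the mutant libraries held 1 to 27 reads, and this depth limits the size of their differences; intervals from counts cover counting error only.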

Other observations

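The ratio of heterozygote to mutant CPM, with exact 95% binomial intervals over summed counts that cover counting error only, was 25.7 (18.5 to 36.7) for CG10962 against the NES heterozygote and 26.2 (18.9 to 37.5) against the null heterozygote. It was 16.4 (9.12 to 32.3) and 21.2 (11.9 to 41.6) for mthl8, 17.7 (9.66 to 36.2) and 19.2 (10.5 to 39.2) for CR12628, and 9.14 (6.53 to 13.1) and 8.44 (6.03 to 12.1) for Dh44-R2, against the NES and null heterozygotes. These ratios come from the values that chose the genes, and the intervals leave out the spread between replicates. They are a description and test nothing, and no order of the genes by fold is drawn from them.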
